A study of Mus musculus with 8 samples.

Results

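The genes described here encode the secreted and membrane-bound metalloproteases that cut the extracellular matrix and shed proteins from the cell surface, together with their inhibitors, in the kidney cortex of aged and young mice. They were taken by gene symbol as every Mmp, Adam, Adamts and Adamts-like gene, Timp1 to Timp4, Mep1a, Mep1b and Reck, which gave 86 of the 22609 genes in the count tables. Changes were reported for the 48 genes that had at least 10 counts in 4 or more libraries, and the other 38 are accounted for by name or number further on. RNA was taken from the kidney cortex of 4 aged mice (30 months) and 4 young mice (5 months), all male, of strain C57BL6 and without treatment, with 1 library per mouse. These ages are those of the sample labels, and the methods of the study give a higher mean age for the aged mice. Ribosomal RNA was depleted and the libraries were stranded. Whole cortex was sequenced, so a lower value can mean fewer cells of a type or less RNA per cell, which cannot be told apart.

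Matrix metalloproteases (MMPs) are zinc enzymes that are made as inactive precursors and, once activated, cut collagens, other matrix proteins and each other. ADAMs are membrane-anchored relatives that release growth factors, cytokines and receptors from the cell surface, and ADAMTS enzymes are secreted relatives that cut proteoglycans, procollagens and other matrix proteins. Meprins are astacin-type metalloproteases of the brush border of the proximal tubule, and the tissue inhibitors of metalloproteases (TIMPs) and the membrane protein RECK hold these enzymes in check. In the kidney this balance is known for its part in matrix turnover, glomerular filtration barrier upkeep and the response to injury.

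Of the 46 reported genes that entered the test, 2 changed, with Adamts1 lower and Adam22 higher in aged mice (4.35% of the 46). A call needed a fold change over 1.5 together with an adjusted p under 0.05, from the quasi-likelihood test of edgeR adjusted by Benjamini-Hochberg over the 13944 genes that were tested. Among all of those, 287 were called (2.06%), 163 higher in aged mice (1.17%) and 124 lower (0.889%), and 411 had an adjusted p below 0.05 whatever their fold (2.95%). The 4 aged and 4 young mice did not overlap in 5 of the 46 genes, where Adam22, Adamtsl1 and Mmp14 lay above and Adamts1 and Mep1b below the young mice, and they did not overlap in 18.9% of all genes tested. The log2 fold changes (aged against young) had a median of -0.07 over the 46 genes and 0.03 over all genes tested.

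The number of calls depended on single mice and on the tool. Without aged mouse 4, 8 of 46 genes were called (17.4%), where 5.21% of all genes were. Without aged mouse 1, 2 of 47 were called (4.26%), where 3.17% of all genes were, and none was called without aged mouse 2, aged mouse 3 or any young mouse. The share over all genes was then also low, at 0.845% without aged mouse 2, 0.815% without aged mouse 3 and 0.0567 to 0.248% without a young mouse. Without aged mice 1 and 4 together, a choice made after the data were seen, 8 of 48 were called (16.7%), where 5.97% of all genes were. DESeq2 called 7 of 46 (15.2%), where it called 6.26% of all genes. These 7 were Adamts1, Adam22, Adamts6, Adamtsl1, Mmp14, Mep1a and Mep1b.

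**Figure D1:**
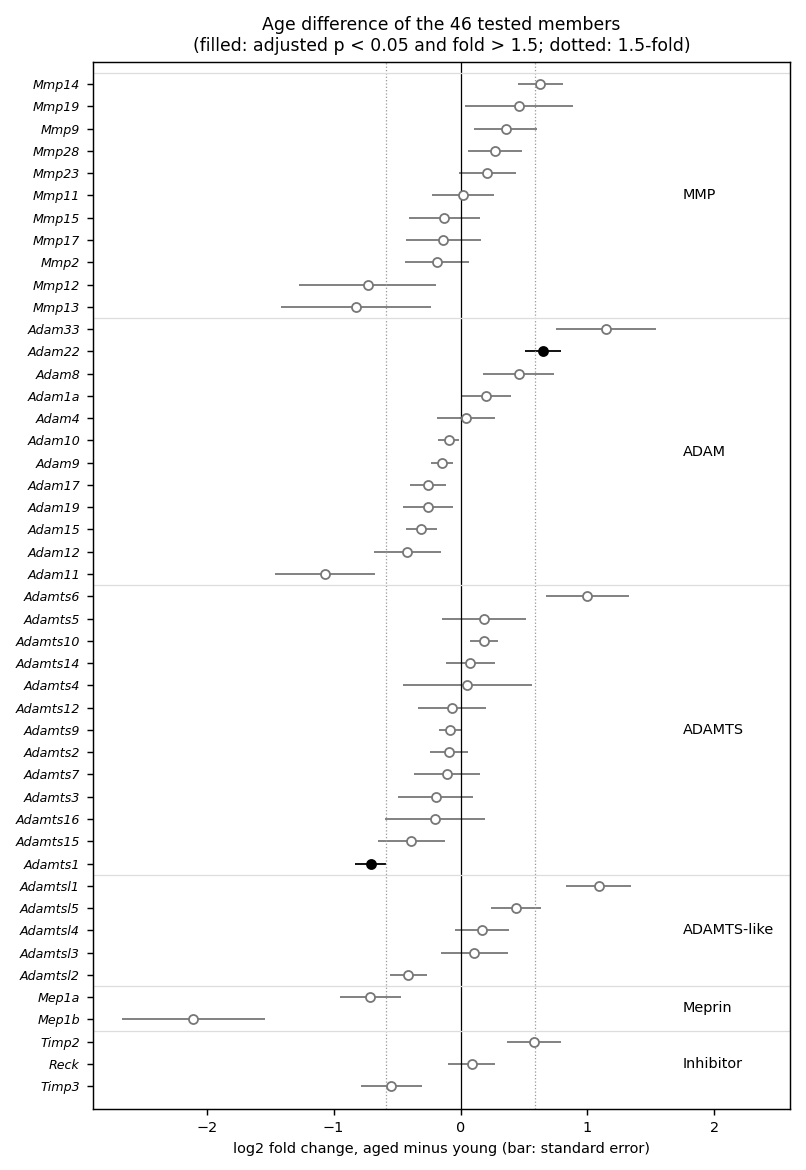
Log2 fold change with age (x axis; positive is higher in aged) for the 46 tested genes, one per line and grouped by family. Points are estimates, bars are standard errors, dotted lines mark the 1.5-fold limit, and the 2 filled points are Adam22 at 0.65 and Adamts1 at -0.71.

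The libraries held 14820804 to 19821429 counts on genes. Values are given as CPM, which are counts scaled to a common library total after normalization by the trimmed mean of M values (TMM), and 3 counts, the upper limit that a count of 0 allows, correspond to 0.147 to 0.204 CPM, which covers counting error only. Markers of cortex were present, since 9 proximal tubule genes summed to 25530 to 29270 CPM in young mice. In aged mice they summed to 13540, 24470, 23780 and 28580 CPM, so that aged mouse 1 stood apart with the lowest value. Markers of other cell types summed, in aged and young mice respectively, to 633 to 852 and 696 to 765 CPM for endothelium, 348 to 672 and 477 to 585 CPM for podocytes, 3460 to 4750 and 4390 to 6270 CPM for thick limb and distal tubule, 314 to 469 and 326 to 391 CPM for collecting duct, and 19.8 to 46.9 and 22.3 to 30.9 CPM for lymphocytes. In the paragraphs on single genes, values run in the order of mouse 1 to 4, and errors of means are SDs over 4 mice.

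The promoters of the 2 genes that changed are shown because they were the genes that edgeR called with all 8 mice under TMM. Each is the 250 bases before the start of transcription, 5′ to 3′ on the strand of the gene, from the RefSeq table for GRCm38.p6, located by exact match in mm9, the build of the counts. Capitals mark matches to a GC box (GGGCGG) or a TATA box (TATAAA).
Adamts1 (chr16:85803359-85803608, minus strand): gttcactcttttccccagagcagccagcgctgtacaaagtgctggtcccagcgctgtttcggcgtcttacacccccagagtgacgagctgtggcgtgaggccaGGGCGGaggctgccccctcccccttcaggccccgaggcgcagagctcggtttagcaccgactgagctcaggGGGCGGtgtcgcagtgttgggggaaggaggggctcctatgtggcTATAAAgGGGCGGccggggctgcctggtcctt
Adam22 (chr5:8368161-8368410, minus strand): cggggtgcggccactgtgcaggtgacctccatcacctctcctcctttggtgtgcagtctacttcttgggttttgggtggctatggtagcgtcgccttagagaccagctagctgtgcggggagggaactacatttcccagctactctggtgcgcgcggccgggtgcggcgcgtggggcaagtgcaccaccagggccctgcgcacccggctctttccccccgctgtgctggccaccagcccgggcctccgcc
Both were rich in G and C, with 65.6% in Adamts1 and 66.8% in Adam22, where the median over all promoters of the table was 52.4%. The Adamts1 promoter held GC boxes at 147, 76 and 25 bases and a TATA box at 32 bases before the start, and the last pair stand next to each other without overlap. An E-box (CACGTG), an AP-1 site (TGAGTCA), a cAMP response element (TGACGTCA) and an HNF1 half-site (GTTAAT) were also searched on both strands, and no match to any of the 6 motifs was in the Adam22 window. Of the 32851 promoters in the table, 32.7% held a GC box, 12.4% a TATA box, 6.02% an E-box, 4.46% an AP-1 site, 1.55% a cAMP response element and 6.43% an HNF1 half-site. A match is a description of the letters, and what binds there was not measured.

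Per kilobase of exon, a scale that allows a rough comparison between genes, the family was dominated by 3 genes. The lengths are those of GENCODE M1 exons, while the counts were made on the RefSeq annotation. In young mice Mep1a stood at 635 ± 88.7 CPM per kb, Timp3 at 467 ± 64.8 CPM per kb and Mep1b at 69.8 ± 26.7 CPM per kb, and no other gene exceeded 50 CPM per kb. Over the 4 young mice Mep1a ran from 540.2 to 733 CPM per kb and Timp3 from 381 to 523 CPM per kb, which did not overlap. The order of these 2 genes depends on the length used. All annotated exons span 3452 nt for Mep1a and 8144 nt for Timp3, and their longest coding transcripts 2967 and 4722 nt. In CPM not divided by length, Timp3 was the higher in young mice, at a mean of 3806 CPM against 2192 CPM for Mep1a. The sheddase Adam9 came next at 40.0 ± 1.5 CPM per kb, with a highest value of 41.7 CPM per kb that was also the lowest of Mep1b. Adam10 followed at 27.5 ± 1.35 CPM per kb and Adamts1 at 23.6 ± 3.21 CPM per kb, and the ranges of these genes overlapped. Timp2 stood below them at 13.9 ± 1.68 CPM per kb. At the other end 19 of the 48 genes lay under 1 CPM per kb in young mice. In aged mice Mep1b ranked 6 of 48 at 16.2 ± 11.2 CPM per kb, behind Adam9, Adam10 and Timp2, while Mep1a at 388 ± 138 CPM per kb and Timp3 at 320 ± 101 CPM per kb were again the highest.

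**Figure D2:**
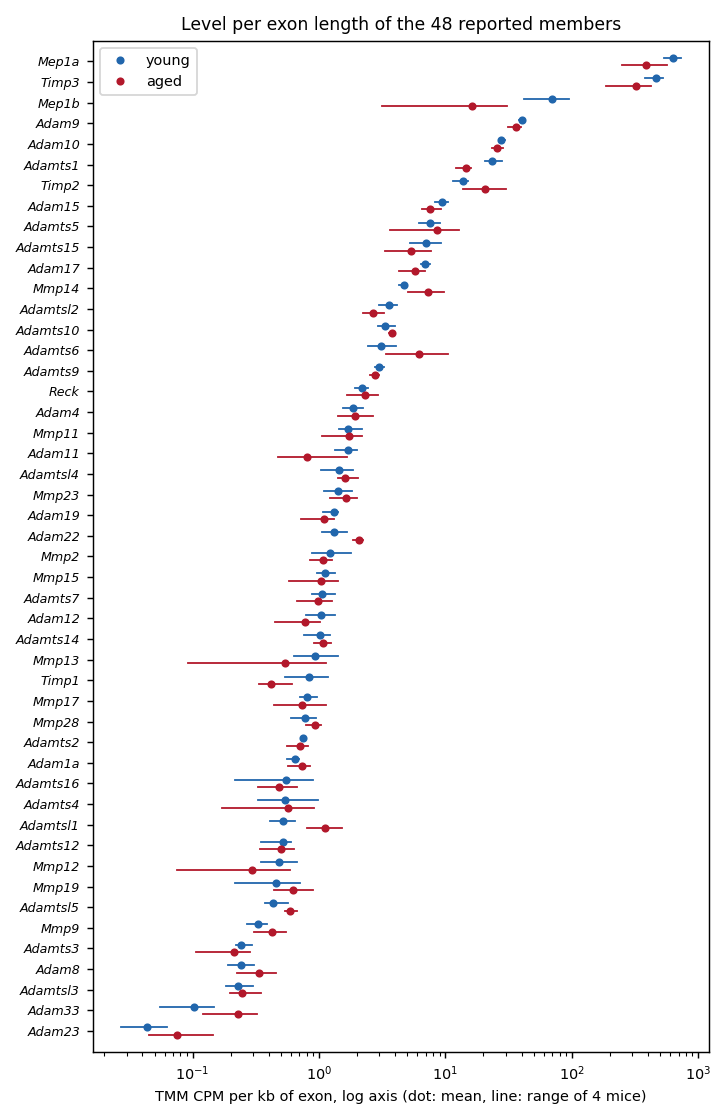
Level of the 48 reported genes in TMM-scaled CPM per kb of exon (x axis, log scale), ordered by the young mean. Dots are means and lines the range of 4 mice, blue for young and red for aged mice; Mep1a, Timp3 and Mep1b are the 3 genes above 50 CPM per kb in young mice.

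Counts of the 86 genes together made up 0.645%, 0.684%, 0.657% and 0.748% of the counts on genes in young mice and 0.353%, 0.516%, 0.516% and 0.629% in aged mice. These shares did not overlap, and they rest mostly on Timp3 and Mep1a. The summed level was 4883 ± 1270 CPM in aged and 7106 ± 538 CPM in young mice, and without those 2 genes it was 938 ± 40.9 CPM in aged and 1108 ± 70.5 CPM in young mice. Without them the ages still did not overlap, at 894.5 to 981.9 CPM in aged and 1041 to 1181 CPM in young mice. No test was made on these sums.

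Among the proteoglycan-cutting ADAMTS enzymes, which open the hyaluronan-binding proteoglycans versican and aggrecan, 1 of 5 tested genes fell and 4 did not pass the test. Adamts1, also known as an inhibitor of vessel growth, spans chr16:85794072-85803358 on the minus strand of mm9, and its longest coding transcript has 9 exons. It stood at 64.1, 82.7, 74.0 and 85.0 CPM in aged mice and at 117, 109, 149 and 125 CPM in young mice. Every aged mouse lay below every young mouse, and aged mouse 1 was the lowest and young mouse 3 the highest. The means were 76.5 ± 9.53 CPM and 125 ± 17.01 CPM, a log2 fold change of -0.71 (SE 0.12) with an adjusted p of 0.0323 by edgeR's quasi-likelihood test. The direction was kept when any 1 mouse was left out, at -0.76 to -0.61, while the call was kept in the fits without aged mouse 1 (adjusted p = 0.0231) and without aged mouse 4 (adjusted p = 0.0175) and lost in the other 6. Without aged mouse 2 or 3 the adjusted p was 0.0536 and 0.0637, and without young mouse 1, 2, 3 or 4 it was 0.0895, 0.0704, 0.0871 and 0.103. Leaving out a young mouse also lowered the count over all genes from 287 to between 8 and 35.

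Adamts5, the main aggrecan-cutting enzyme of cartilage, spread widely among the aged mice, at 29.3, 103.9, 89.5 and 56.6 CPM, around the narrower young values of 60.7, 73.1, 61.0 and 50.3 CPM. Aged mice thus lay on both sides of the young mice, and the log2 fold change of 0.19 (SE 0.33) did not pass the test (edgeR, adjusted p = 0.747). Of the 100-nt windows of its transcript 3.55% also occur elsewhere in mm9 at 98% identity or more. Adamts9, a versican-cutting enzyme that the mouse embryo needs, stood at 35.02 ± 2.58 CPM in aged and 37.1 ± 2.51 CPM in young mice, a log2 fold change of -0.08 (SE 0.08). Adamts15 and Adamts4 had log2 fold changes of -0.39 and 0.05 and did not pass the test either.

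Adam22 belongs to the ADAMs that have lost their catalytic site and bind the secreted LGI proteins at synapses. It spans chr5:8072352-8368160 on the minus strand of mm9, and its longest coding transcript has 33 exons. It stood at 22.9, 27.3, 27.3 and 23.2 CPM in aged mice and at 14.6, 20.2, 16.2 and 13.0 CPM in young mice. All aged mice exceeded all young mice, and young mouse 2 came nearest to the aged range. The means of 25.2 ± 2.43 CPM and 15.998 ± 3.09 CPM gave a log2 fold change of 0.65 (SE 0.14) and an adjusted p of 0.0490 by edgeR's quasi-likelihood test, just inside the threshold. Leaving out aged mouse 1 or 4 kept the call (adjusted p = 0.0357 and 0.0374), and leaving out any of the other 6 lost it (adjusted p = 0.0634 to 0.146) with log2 fold changes of 0.57 to 0.79. The call was also lost with no filter on low counts (adjusted p = 0.0553).

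Adam11, named here after its values were seen, had 2.70, 2.93, 3.21 and 9.43 CPM in aged mice and 9.92, 7.56, 11.2 and 9.63 CPM in young mice. In 3 aged mice it lay below all young mice and in aged mouse 4 within their range, and the log2 fold change of -1.07 (SE 0.39) did not pass the test (edgeR, adjusted p = 0.140), whereas without aged mouse 4 it was -1.70 with an adjusted p of 0.00325. Adam23, another member of this group, had 60 counts over the aged and 32 over the young mice and was too low for the low-count filter of the test. In the 8 alternative edgeR fits that kept it, its log2 fold change was 0.36 to 0.97 and it was not called (adjusted p = 0.224 to 0.636).

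The catalytically active ADAMs of somatic tissues, which shed epidermal growth factor receptor ligands, tumour necrosis factor and Notch among others, showed no call among 8 tested genes. Adam10, the constitutive sheddase that cuts Notch and cadherins, stood at 124, 114, 129 and 141 CPM in aged and 133, 131, 133 and 146 CPM in young mice. Its log2 fold change of -0.09 (SE 0.08) did not pass the test (edgeR, adjusted p = 0.490). Adam17, the sheddase of tumour necrosis factor, stood at 30.5, 39.7, 49.4 and 45.7 CPM in aged and 47.4, 46.2, 49.6 and 54.0 CPM in young mice, a log2 fold change of -0.25 (SE 0.14) that did not pass the test (adjusted p = 0.283). Aged mouse 1, the library with the lowest proximal tubule markers, was also the lowest for Adam17, and the part of those markers in it was not tested.

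Adam9, which is found on epithelial cells, was at 125, 148, 147 and 160 CPM in aged and 167, 162, 153 and 161 CPM in young mice, with a log2 fold change of -0.15 (SE 0.09). Adam15, an ADAM of endothelium and epithelium, was at 56.9, 48.1, 40.2 and 42.4 CPM in aged and 64.0, 57.5, 51.3 and 59.4 CPM in young mice, with a log2 fold change of -0.31 (SE 0.12). Neither passed the test, with adjusted p values of 0.309 and 0.156 by edgeR, and in both the groups overlapped. The remaining ADAMs of this list ranged from -0.42 for Adam12 to 1.15 for Adam33, which was low at 1.22 ± 0.470 CPM in aged and 0.550 ± 0.227 CPM in young mice (adjusted p = 0.123). Of the Adam12 transcript 54.4% of 100-nt windows also occur elsewhere in mm9, which leaves its counts uncertain, and Adam28 had 17 counts over the aged mice, 14 of them in aged mouse 1, and 4 over the young mice.

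None of the 11 tested MMPs passed the test. Mmp14, the membrane-bound collagenase that also activates the precursor of Mmp2, spans chr14:55050441-55060095 on the plus strand of mm9. It stood at 25.1, 18.5, 19.2 and 13.1 CPM in aged and at 12.3, 12.7, 11.2 and 12.9 CPM in young mice. All aged mice lay above all young mice, aged mouse 4 by a small margin, and aged mouse 1 was the highest. The log2 fold change of 0.63 (SE 0.18) did not pass the test (edgeR, adjusted p = 0.0829), and without aged mouse 4 it was 0.77 with an adjusted p of 0.0166 and without aged mouse 1 it was 0.46 with 0.0857. Mmp15, another membrane-type MMP, had 4.47 ± 1.72 CPM in aged and 4.87 ± 0.748 CPM in young mice and a log2 fold change of -0.13 (SE 0.28), and Mmp17 had -0.14 (SE 0.29).

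The gelatinases, which cut denatured collagen and type IV collagen of basement membranes, were both low. Mmp2, made mainly by mesenchymal cells, was at 3.34, 3.84, 2.57 and 3.27 CPM in aged and 2.65, 5.39, 3.67 and 3.01 CPM in young mice, with a log2 fold change of -0.18 (SE 0.25; edgeR, adjusted p = 0.669). Mmp9, made by leukocytes and some epithelial cells, was at 1.08, 1.95, 1.603 and 1.42 CPM in aged and 1.11, 1.38, 0.952 and 1.24 CPM in young mice, with a log2 fold change of 0.36 (SE 0.25; edgeR, adjusted p = 0.380). The ages overlapped in both genes. Fibroblast and pericyte markers, 9 genes, summed to 294 to 477 CPM in aged and 386 to 486 CPM in young mice.

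Mmp12, the macrophage elastase, was at 1.08, 4.29, 2.62 and 0.545 CPM in aged and 4.81, 3.91, 2.52 and 2.78 CPM in young mice. Aged mice 1 and 4 lay below all young mice and the other aged mice within their range, and the log2 fold change of -0.73 (SE 0.54) did not pass the test (edgeR, adjusted p = 0.409). The 9 macrophage markers summed to 101 to 220 CPM in aged and 117 to 173 CPM in young mice, and aged mouse 4 had the highest sum. Of these genes 1 passed the test, 8 did not, and the median log2 fold change was 0.49. The one that passed was Csf1r, the receptor for macrophage colony-stimulating factor, fell with a log2 fold change of -1.004 (SE 0.22, adjusted p = 0.0472). Its call was lost without aged mouse 2 or 3 or any young mouse (adjusted p = 0.0737 to 0.132). The estimates of the other 8 were above 0, from 0.13 for Cd68 to 0.83 for Mrc1, a mannose receptor whose aged mice all exceeded the young mice (adjusted p = 0.0749). The part of these markers in the Mmp12 values was not tested. Mmp13, the interstitial collagenase of the mouse, had 1.43 ± 1.21 CPM in aged and 2.50 ± 0.894 CPM in young mice and a log2 fold change of -0.82 (SE 0.59). Mmp11, Mmp19, Mmp23 and Mmp28 lay between 0.02 and 0.46 on the log2 scale, and none of them passed the test.

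Several MMPs known from injured or inflamed tissue were hardly counted at all. Mmp7, the matrilysin that injured tubules are known to produce, had 7 counts over the aged and 4 over the young mice, Mmp3 had 26 and 20, and Mmp8, the neutrophil collagenase, had 20 and 13. Mmp10 had 1 count in all, and Mmp1a and Mmp1b had none in any library. Neutrophil markers were likewise low, with 3 of 5 genes at 0 in every library. Their sums of 3.00 to 5.40 CPM in aged and 1.16 to 2.6 CPM in young mice did not overlap. The 2 that were counted, S100a8 and S100a9, had log2 fold changes of 1.37 and 1.02 and did not pass the test (edgeR, adjusted p = 0.0890 and 0.0811). For these MMPs a difference was not detectable at this depth.

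Of the meprins, the alpha subunit Mep1a forms secreted oligomers and the beta subunit Mep1b anchors the enzyme in the brush border membrane. Mep1b was at 35.2, 39.7, 7.48 and 72.9 CPM in aged and at 218, 99.7, 125 and 225 CPM in young mice. Every aged mouse lay below every young mouse, aged mouse 3 far below the others, and the means were 38.8 ± 26.8 CPM and 167 ± 63.9 CPM. The log2 fold change of -2.10 (SE 0.57) was the largest in size of the 46 genes, and it did not pass the test (edgeR, adjusted p = 0.0738). Without aged mouse 3 it was -1.76 (adjusted p = 0.0696) and without aged mouse 4 -2.61 (adjusted p = 0.0327).

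Mep1a spans chr17:43611273-43639761 on the minus strand of mm9. It was the highest of the 48 genes per kilobase of annotated exon, while Timp3 was higher in CPM not divided by length. It stood at 870, 1423, 1096 and 1965 CPM in aged and at 2360.1, 1865, 2013 and 2529.6 CPM in young mice. Aged mouse 4 lay between young mice 2 and 3, and the other aged mice lay below all young mice. The log2 fold change of -0.71 (SE 0.24) had an adjusted p of 0.118 with edgeR, and -0.96 with an adjusted p of 0.0278 without aged mouse 4.

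The meprins were also set against each other and against proximal tubule markers in the same libraries. Mep1b had 4.05, 2.79, 0.683 and 3.71 counts per 100 Mep1a counts in aged mice and 9.23, 5.35, 6.22 and 8.91 in young mice, so the beta subunit was the scarcer in every mouse and the ratio was lower in each aged mouse. Against every 100 counts of the 9 proximal tubule markers, Mep1a had 6.42, 5.82, 4.61 and 6.88 counts in aged and 9.25, 6.37, 7.26 and 9.26 counts in young mice, where the groups overlapped. Against the same 100 marker counts, Mep1b had 0.26, 0.162, 0.0315 and 0.255 counts in aged and 0.853, 0.341, 0.452 and 0.825 counts in young mice, which did not overlap. No test was made on these ratios. The 9 markers themselves differed in direction, with log2 fold changes from -0.97 for Slc7a13 to 0.75 for Slc5a12 and a median of -0.30. None of the 9 passed the test, and the part of single markers in the ratios was not tested.

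**Figure D3:**
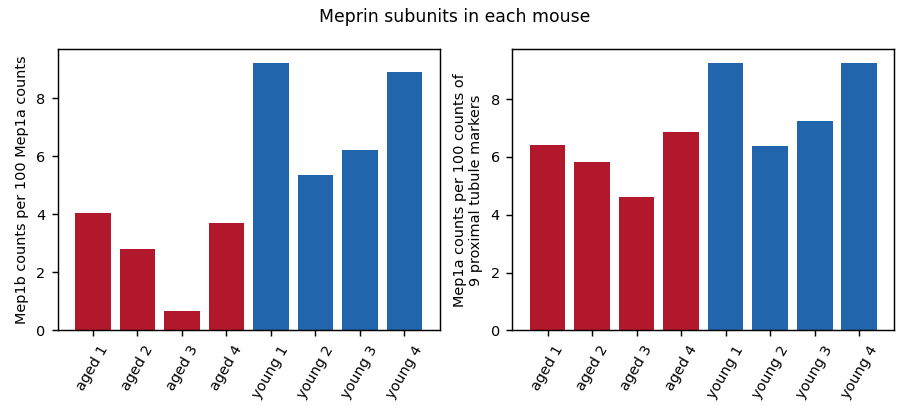
Counts of Mep1b per 100 counts of Mep1a (left) and of Mep1a per 100 summed counts of 9 proximal tubule markers (right) in each of the 8 mice, red for aged and blue for young. On the left all aged mice (0.683 to 4.05) lie below all young mice (5.35 to 9.23), and on the right aged mice 1 and 4 reach into the young range.

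The inhibitors gave no call among 3 tested genes, and their estimates differed in sign. Timp3, the matrix-bound inhibitor that also blocks ADAM10 and ADAM17, spans chr10:85763117-85812251 on the plus strand of mm9 and shares exonic sequence with Syn3 on the opposite strand. It stood at 1511, 2573, 2862 and 3478 CPM in aged and at 3102, 4263, 3704 and 4155 CPM in young mice. Aged mouse 4 lay within the young range and aged mouse 1 was the lowest of all 8. The log2 fold change of -0.55 (SE 0.24) did not pass the test (edgeR, adjusted p = 0.194), and it was -0.36 without aged mouse 1.

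Timp2, which inhibits MMPs and, together with Mmp14, helps to activate Mmp2, spans chr11:118162383-118217054 on the minus strand of mm9. It was at 117, 79.0, 72.8 and 53.9 CPM in aged and at 57.6, 58.6, 44.3 and 55.2 CPM in young mice. Aged mice 1 to 3 lay above all young mice and aged mouse 4 among them. The log2 fold change of 0.58 (SE 0.21) had an adjusted p of 0.137 with edgeR, which became 0.0438 at 0.73 without aged mouse 4 and 0.169 at 0.34 without aged mouse 1. Aged mouse 1 was the highest in Mmp14, Timp2, Adamtsl1 and Adamts6 and the lowest in Timp3 and Mep1a. It also had the lowest proximal tubule markers and, at 529 CPM, the highest sum of 8 adipocyte genes, which lay between 25.7 and 147 CPM in the other mice. The part of either in these values was not tested.

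Reck, a membrane-anchored inhibitor of several MMPs, stood at 11.1 ± 2.81 CPM in aged and 10.4 ± 1.03 CPM in young mice, a log2 fold change of 0.09 (SE 0.19). Timp1, the inducible inhibitor that rises in many injured tissues, had 6, 5, 6 and 10 counts in aged and 17, 16, 7 and 10 in young mice. These were too few for the low-count filter of the test, and its gene lies inside Syn1 on the opposite strand. In the 6 alternative edgeR fits that kept it, its log2 fold change was -1.19 to -0.93 and it was not called (adjusted p = 0.132 to 0.198). Timp4 had 51, 1, 1 and 4 counts in aged and 0, 1, 0 and 1 in young mice, so that 1 library held nearly all of them. The adipocyte list, written after Timp4 was seen, summed to 529, 147, 38.9 and 84.7 CPM in aged mice and 25.7 to 67.4 CPM in young mice. Its part in the Timp4 counts was not tested.

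**Figure D4:**
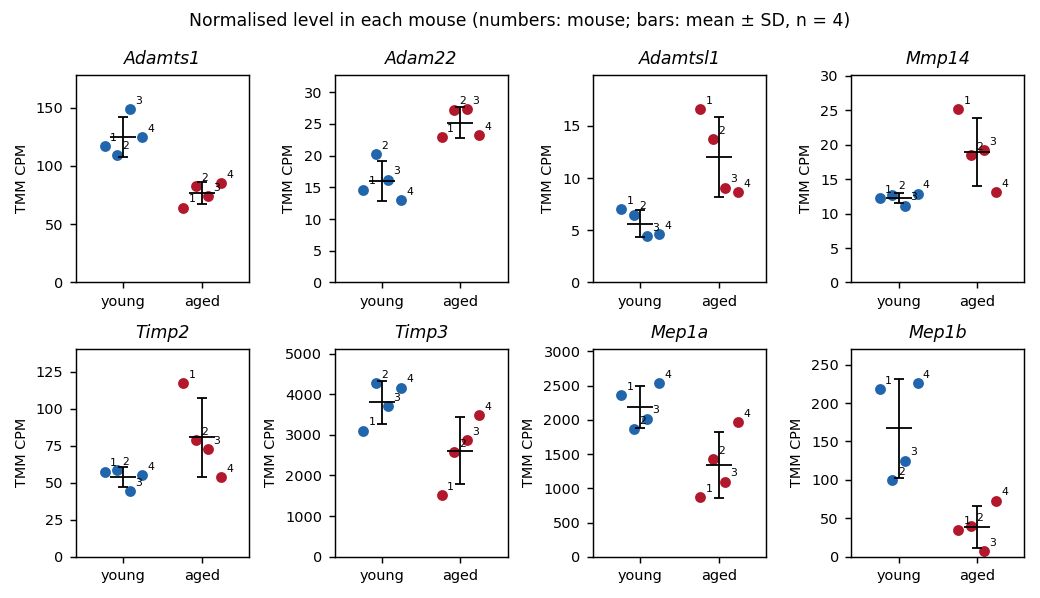
TMM-scaled CPM (y axis, from 0) of 8 genes in each mouse, with young mice in blue and aged mice in red, numbered by mouse. Horizontal marks are means and error bars SDs (n = 4); Adamts1 and Mep1b are lower and Adam22, Adamtsl1 and Mmp14 higher in every aged mouse than in any young mouse, and in Timp2, Timp3 and Mep1a the ages overlap.

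ADAMTS-like proteins carry the substrate-binding domains of ADAMTS enzymes without a protease, and several are known as partners of fibrillin microfibrils. None of the 5 passed the test. Adamtsl1 spans chr4:85699819-86074289 on the plus strand of mm9 and stood at 16.6, 13.7, 9.09 and 8.66 CPM in aged and at 7.03, 6.51, 4.42 and 4.61 CPM in young mice. Again all aged mice exceeded all young mice, with means of 12.02 ± 3.82 CPM and 5.64 ± 1.32 CPM. The log2 fold change of 1.09 (SE 0.25) was close to the threshold without passing it (edgeR, adjusted p = 0.0554), and leaving out 1 mouse gave log2 fold changes of 0.89 to 1.22, with an adjusted p of 0.0292 without aged mouse 4. The other 4 ranged from -0.41 for Adamtsl2 to 0.44 for Adamtsl5.

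The procollagen N-proteinases, which trim the amino end of fibrillar procollagens, gave no call among 3 tested genes. Adamts2, mutated in a form of Ehlers-Danlos syndrome, was at 7.46, 7.61, 5.99 and 5.23 CPM in aged and at 7.40, 7.03, 6.87 and 6.67 CPM in young mice, with a log2 fold change of -0.09 (SE 0.15; edgeR, adjusted p = 0.734). Adamts3 and Adamts14 had -0.19 and 0.08. Among the other 5 tested ADAMTS genes, Adamts10, a microfibril-associated enzyme, was at 20.8 ± 0.843 CPM in aged and 18.3 ± 2.53 CPM in young mice, with a log2 fold change of 0.18 (SE 0.11; edgeR, adjusted p = 0.308). Adamts6, its close relative, was named after its values were seen, with 52.6, 23.5, 17.1 and 30.9 CPM in aged and 13.7, 15.6, 20.5 and 12.3 CPM in young mice. Aged mouse 1 was far the highest, and the log2 fold change of 1.00 (SE 0.32; adjusted p = 0.108) became 0.62 without it.

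**Figure D5:**
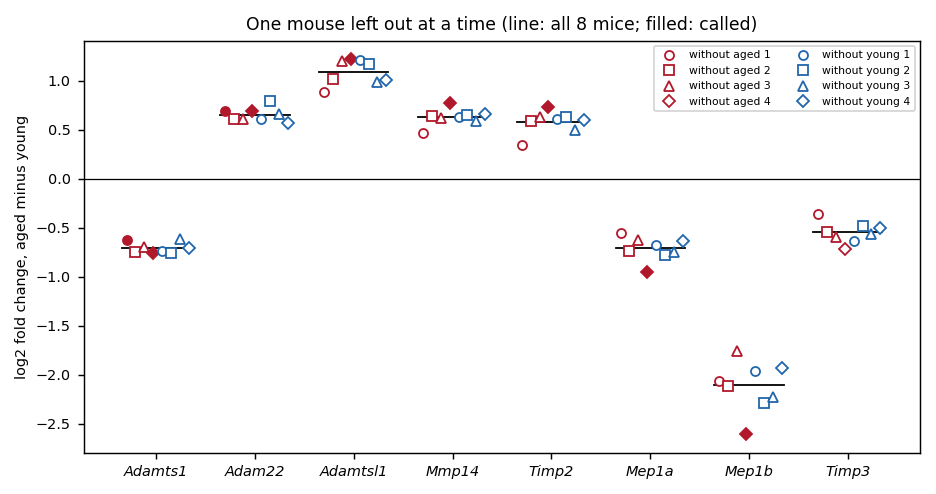
Log2 fold change with age (y axis; positive is higher in aged) for 8 genes when 1 mouse is left out at a time, with symbols for the mouse left out, filled where the gene was called and open where it was not, and black lines for the value from all 8 mice. No gene changes direction, and more genes are filled without aged mouse 4 (diamonds, 7 of the 8 genes) than in any other fit shown.

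Genes that work with these proteases were counted from 4 lists, 71 genes in all, of which 61 were tested, and 1 rose and 2 fell, where 2.06% of all genes were called. In the list of proteins that activate or hold back these enzymes (20 tested), Serpine2, an inhibitor of plasminogen activators and thrombin, rose from 17.1 ± 1.26 CPM in young to 30.0 ± 4.91 CPM in aged mice, with a log2 fold change of 0.81 (SE 0.13; edgeR, adjusted p = 0.0251). Serpinf2, the inhibitor of plasmin, fell from 378 ± 32.5 CPM to 206 ± 59.6 CPM, with a log2 fold change of -0.88 (SE 0.19; edgeR, adjusted p = 0.0499). Among membrane proteins that ADAMs shed (19 tested), Hbegf, an epidermal growth factor receptor ligand released by ADAM17 and other sheddases, fell from 20.9 ± 1.30 CPM to 11.6 ± 2.28 CPM, with a log2 fold change of -0.85 (SE 0.14; edgeR, adjusted p = 0.0273). In these 3 genes the aged and young mice did not overlap, as in 10 of the 61 in all and in 18.9% of all genes tested. None of 11 tested ADAMTS substrates and none of 11 tested astacin, cathepsin and brush border proteases passed the test. Leaving out any young mouse lost the calls of all 3 (adjusted p = 0.0757 to 0.135), and leaving out aged mouse 2 or 3 also lost those of Hbegf (0.0553 and 0.0508) and Serpinf2 (0.076 and 0.0899). The lowest estimates among the substrates were those of the fibrillar collagens Col3a1 at -1.24 (adjusted p = 0.0559) and Col1a1 at -1.20 (adjusted p = 0.0729) by edgeR, named after their values were seen, which passed the test without aged mouse 1 (-1.003 and -0.93, adjusted p = 0.0196 and 0.0184). The highest estimates among the substrates were those of Vwf, the von Willebrand factor that ADAMTS13 cuts, at 2.04 (SE 0.69; adjusted p = 0.118) and of Vcan, the versican gene, at 1.31 (SE 0.74; adjusted p = 0.288) by edgeR. Both were highest in aged mouse 1, with 38.5 CPM of Vwf and 13.2 CPM of Vcan, where the other mice had 2.52 to 6.81 CPM and 0.709 to 3.14 CPM.

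The 38 genes under the reporting rule included 13 with no count in any library, most of them ADAMs known from testis: Adam7, Adam18, Adam24, Adam25, Adam26a, Adam26b, Adam29, Adam34, Adam39, Adam6a, Adamts19, Mmp1a and Mmp1b. Of those not yet given, the highest totals were those of Mmp16 with 35 counts over the aged and 41 over the young mice, Adam32 with 33 and 21, Adam21 with 22 and 24 and Mmp25 with 27 and 18. The remaining 15, which were Adam1b, Adam2, Adam3, Adam5, Adam6b, Adam30, Adamts8, Adamts13, Adamts17, Adamts18, Adamts20, Mmp20, Mmp21, Mmp24 and Mmp27, had 0 to 16 counts over the aged and 0 to 21 over the young mice. Of the reported genes, 2 had no role list, Adam1a and Adam4, with log2 fold changes of 0.20 and 0.04. Counts of Adam1a, of which 37.0% of 100-nt windows occur elsewhere and whose exons overlap Mapkapk5 on the same strand, and of Adam4, which lies inside other genes on the same strand, are uncertain. The same holds for Mmp11 and Mmp17, whose exons overlap those of another annotated gene on the same strand. Adam8, Adam15, Adam17, Adam19, Adamts7, Adamts9, Mmp12, Mmp19 and Mmp28, like Timp3, share exonic sequence with a gene on the opposite strand, which the counting kept apart, since it took only reads of the strand of the gene.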

How the data were processed

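Read counts per gene, as deposited in one file per mouse, were used. Per the labels and the submitters' processing notes, the authors made these counts with CASAVA 1.8.2, TopHat2, SAMtools and HTSeq on mm9 from stranded, ribosome-depleted libraries. Per the methods of the study, alignment and counting used strand, with HTSeq in its reverse mode on the RefSeq annotation. HTSeq set aside 34.3 to 39.1% of alignments as not unique, 20 to 29.9% as on no gene and 0.231 to 0.346% as ambiguous, and those rows were left out. The share on no gene was 29.9% in aged mouse 1 and 29% in aged mouse 4, and 20 to 25.1% in the other mice. Its part in the results was not tested. A joint table was not used, since the names of its 8 columns did not match the sample titles.

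Counts were tested over the whole table with edgeR 4.0.16 (TMM, filterByExpr with a minimum count of 10, quasi-likelihood F test, Benjamini-Hochberg adjustment) in R 4.3.3, on all 8 libraries with no covariate. SEs are the log2 fold change divided by the square root of F. The code was tested on simulated data. Alternatives used DESeq2 1.42.0 and limma 3.58.1. Positions and exon lengths came from GENCODE M1 (mm9) and near-identical copies from BLAST 2.17.0 (100-nt windows, 98% identity). Of the 48 reported genes 30 had an entry in the promoter table.

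Ages are given as in the labels, from which the mean age of the aged mice in the methods differs. The genes, role lists, partner lists and markers were chosen with earlier results of these data known. Values for every mouse were given for genes with an adjusted p below 0.05, the up to 5 largest and 5 smallest log2 fold changes among genes whose ages did not overlap, and most of a fixed set of well-known members. Of that set, Mmp15, Adamts9, Adamts10 and Reck were given as mean and SD, and Mmp7 as total counts. Further genes were named as the ends of a list's range or, for Adam11, Adamts6 and Adam28, after their values were seen. Nothing in the sources ties more than 1 library to a mouse, and p-values rest on 4 mice per age.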

Additional observations from a re-analysis of the deposited data

Results flagged for a closer look

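For each of the 48 reported genes and each age, the gap between the most extreme mouse and its nearest neighbour was divided by the range of the 4 mice and compared with Dixon's 95% critical value. Of the 96 groups tested, 5 exceeded it, where chance alone gives about 4.8. Adam11 in aged mouse 4 was at 9.43 CPM, with the next aged mouse at 3.21 CPM (gap over range 0.925). Adamts3 was highest in young mouse 3, at 2.52 CPM against 1.96 CPM (0.893). Timp1 was highest among aged mice in mouse 4, at 0.545 CPM against 0.325 CPM (0.878), and these values stand for 10 and 5 counts. Adam10 was highest among young mice in mouse 4, at 146 CPM against 133 CPM (0.877), and Adamtsl5 in the same mouse, at 2.66 CPM against 1.91 CPM (0.84).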

How the results depend on the processing

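The number of genes called, 2 with all mice and edgeR, was 7 with DESeq2, 4 with limma-voom with quality weights, 1 with no filter on low counts, which lost Adam22, 0 at a fold change above 2, and 8 without aged mice 1 and 4, a setting added after the data were seen. With 1 mouse left out it ran from 0 to 8, and the cause of these shifts was not tested. The share called over all genes moved as well, from 2.06% with all mice and edgeR. It was 6.26% with DESeq2, 3.46% with limma-voom, 1.4% with no filter, 0.932% with the replicate block and 5.97% without aged mice 1 and 4. With 1 mouse left out that share ran from 0.0567 to 5.21%. The number with an adjusted p below 0.05 whatever the fold was 7 with DESeq2, 4 with limma-voom, 1 with no filter and 9 without aged mice 1 and 4, and ran from 0 to 8 with 1 mouse left out. With the replicate block both numbers were 1, Adamtsl1 (adjusted p = 0.0406), and Adam22 and Adamts1 had 0.0507 and 0.0537. Deviations of same-numbered mice correlated at 0.206, 0.038, 0.199 and -0.0302, and those of differently numbered mice at -0.3 to 0.165. The values of mice 1 and 3 thus lay above those of all differently numbered mice. The numbers were not taken as pairs in the model with no covariate, and these correlations do not settle whether they mark pairs. Of the 46 tested genes 18 turned sign in at least 1 alternative, all with a log2 fold change of at most 0.46 in size with all mice, and none was called there. Among the genes chosen by the naming rule these were, with all or 6 mice, Adam10 (0.014), Adamts2 (0.024) and Adamts9 (0.026) with library size only, which shifted the median of all genes from 0.03 to 0.14, Mmp15 (0.27) without aged mice 1 and 4, and Reck (-0.020) with limma-voom. With 1 mouse left out Adamts2 ran from -0.17 to 0.0043, Adamts5 from -0.069 to 0.44, Mmp15 from -0.32 to 0.070, Mmp2 from -0.31 to 0.065 and Reck from -0.047 to 0.22, and none of these passed the test in the fits named. Adamts1 stayed at -0.76 to -0.60 and Adam22 at 0.57 to 0.79 in all 18 alternatives, with calls in 11 and 10 of them and adjusted p values of 3.34e-05 to 0.103 and 0.0026 to 0.146. Over all alternatives Adamtsl1 was called in 6, Mep1b in 4, Mmp14 and Mep1a in 3, Timp2 in 1 and Timp3 in 0. Serpinf2 also lost its call with upper-quartile scaling (adjusted p = 0.0506), robust fitting (0.0513), the count filter (0.05001), no filter (0.0526) and the replicate block (0.0691), and Csf1r with the replicate block (0.0548). With 4 mice per age, genes under about 1 CPM rest on few counts and were limited by depth.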
